A study of Neurospora crassa with 42 samples.

Results

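In the filamentous fungus Neurospora crassa, 49 of 9746 genes formed a set that was higher on the cellulose Avicel, lower on Avicel in a strain without clr-2, and at most slightly higher when clr-2 was driven by another promoter in starved mycelium. The genes were chosen by 4 measured conditions on the 4 h libraries, with L the median over 3 libraries of log2(FPKM + 1). FPKM counts fragments for each kilobase of a transcript relative to all fragments of the library, and is a level that is comparable between genes of unequal length. L in wild type on Avicel exceeded L in starved wild type by at least 1, which left 299 genes, and the mean FPKM in wild type on Avicel was at least 5, which left 281. L in Δclr-2 on Avicel was lower than in wild type on Avicel by at least 1 in 167 of them. In 49 of these 167, L in starved Pccg1-clr-2 exceeded L in starved wild type by less than 0.5. The other 118, clr-2 itself among them, are the comparison set below.

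Neurospora grows on plant cell walls by secreting cellulases and other hydrolases. CLR-1 and CLR-2 are zinc binuclear cluster transcription factors that switch on cellulase genes when cellobiose, a breakdown product of cellulose, is sensed. CLR-3 holds this programme down in the absence of an inducer. CRE-1 is the carbon catabolite repressor, OS-1 is an osmosensing histidine kinase and OS-2 is the mitogen-activated protein (MAP) kinase of the same cascade. Constitutive clr-2 is known to raise many cellulase genes without cellulose.

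Cultures started from conidia were shaken at 200 rpm and 25 °C in constant light for 16 h on 2% sucrose. The washed mycelia then went to Vogel's minimal medium that held either no carbon (starvation) or 2% Avicel, a microcrystalline cellulose. Each of 14 groups held 3 libraries labelled as biological replicates. The Avicel groups, all at 4 h, were wild type (FGSC 2489), Δclr-1 and Δclr-2. Starved for 4 h were wild type, Δclr-3 and Pccg1-clr-2. The strain called Pccg1-clr-2 has the genotype Pccg1-clr-2 Δclr-2: clr-2 runs from the ccg-1 promoter and the native gene is deleted, so both mutant groups in the choice of the genes lack native clr-2. Starved for 10 h were 8 groups: wild type, the single mutants Δclr-3, Δos-1, Δos-2 and Δcre-1, and Δclr-3 combined with each of the other deletions (Δos-1Δclr-3, Δcre-1Δclr-3, Δos-2Δclr-3). No 10 h library took part in the choice.

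The depth implied by the FPKM bounds was 5.18 to 41.2 M (mega) fragments per library at 4 h and 16.3 to 24.8 M at 10 h. The lowest was replicate 1 of wild type on Avicel, whose mean correlation with its group over all genes, 0.896, was also the lowest. Replicate 3 of that group (0.940) and replicate 2 of starved wild type at 4 h (0.942) came next. The deleted genes clr-1 and clr-2 were at 1.71 ± 0.21 and 0.0117 ± 0.0103 FPKM (SD, n = 3) in their own mutants. In the strains that lack them, clr-3 was at 0.0848 to 1.42 FPKM, os-1 at 3.48 to 5.13 and os-2 at 4.28 to 8.52, against wild type ranges at 10 h of 27.01 to 27.3, 167 to 187 and 198 to 230. The cre-1 gene was at 1.01 to 2.59 FPKM in the strains that lack it and at 34.3 to 42.5 in wild type at 10 h. In Pccg1-clr-2, clr-2 was at 298 ± 81.2 FPKM. Wild type held it at 182 ± 9.86 on Avicel and 2.14 ± 1.33 on starvation. The same strain held clr-1 at 142 ± 43.0 FPKM, against 108 ± 43.1 in wild type on Avicel, so the mean of each activator's transcript was above its Avicel mean there. Transcripts of clr-3 were at 23.7 FPKM in starved wild type, 137 in Pccg1-clr-2 and 408 in wild type on Avicel.

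Over the 49 genes, the difference in L between Avicel and starvation in wild type ran from 1.01 to 5.86 with a median of 2.07, against -0.23 over all genes. The difference between Δclr-2 and wild type on Avicel ran from -5.33 to -1.002, with a median of -1.59 against 0.21 over all genes. The difference between Pccg1-clr-2 and wild type on starvation ran from -3.19 to 0.45, with a median of 0.02 against -0.23 over all genes. These values chose the genes and are a description. In the comparison set the 3 medians were 3.61, -2.37 and 3.75, and the median of the mean FPKM on Avicel was 187, against 65.6 in the 49. The median gene of the 49 thus had a smaller Avicel difference and a lower level than the median gene of the comparison set.

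**Figure D1:**
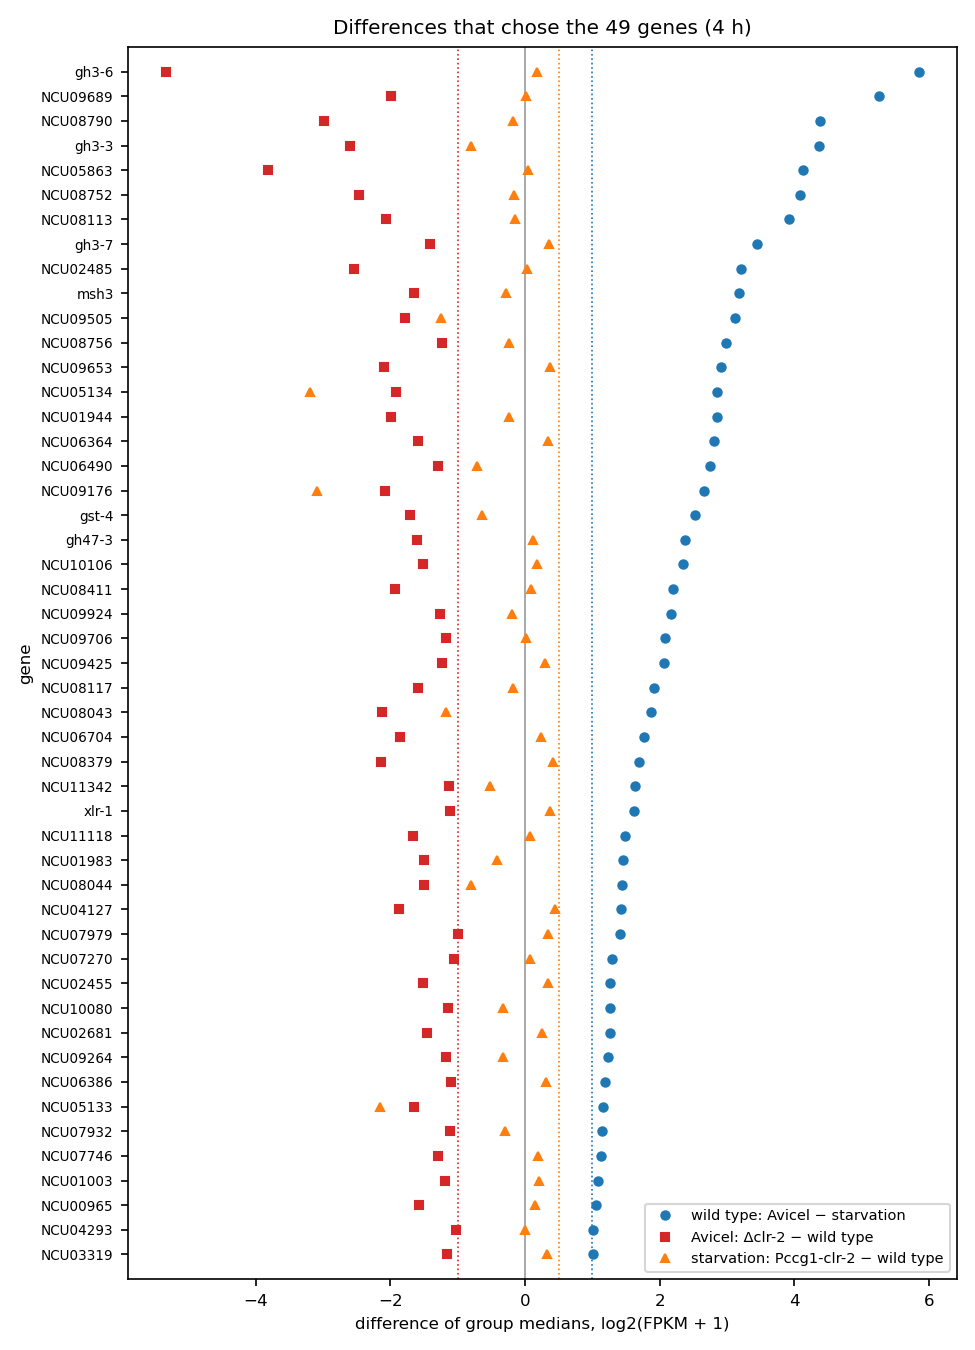
Each row is 1 of the 49 genes, ordered by its Avicel difference, and the horizontal axis is a difference of group medians in log2(FPKM + 1) at 4 h; circles, squares and triangles are the 3 contrasts of the rule and dotted lines its thresholds. The triangles lie near 0 for most genes, but 5 genes lie at -1 or below.

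Behind these medians the libraries of the groups overlapped in some genes. All 3 wild type libraries on Avicel were above all 3 starved ones in 45 of 49 genes (4.79% of all genes, in that direction), the exceptions being NCU05133, NCU05134, NCU10080 and NCU10106. All 3 Δclr-2 libraries were below all 3 wild type libraries on Avicel in 34 (5.04% of all genes). In the Pccg1-clr-2 contrast, 8 genes had all 3 libraries above starved wild type (6.54% of all genes) and 8 had all 3 below (35.1% of all genes), and in the remaining 33 the groups overlapped. The 49 genes thus include level, lowered and slightly raised ones under Pccg1-clr-2: 22 differences in L were below 0, and 39 were smaller than 0.5 in size. The 8 above were NCU02455, NCU02681, NCU03319, NCU04127, NCU06386, NCU06704, NCU08379 and gh3-6, and the difference in L of NCU04127, the member nearest the bound, was 0.45.

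The 5 genes with Pccg1-clr-2 values lower by at least 1 were NCU05134 (-3.19), NCU09176 (-3.09), NCU05133 (-2.15), NCU09505 (-1.25) and NCU08043 (-1.17), each a difference in L. NCU09176 was at 11.9, 11.1 and 8.18 FPKM in starved wild type and at 0.393, 0.418 and 0.554 in Pccg1-clr-2. On Avicel it was at 34.5, 75.1 and 83.8 FPKM in wild type, so the 3 groups did not overlap. NCU05134 was at 14.8, 154 and 37.7 FPKM in starved wild type and 6.11, 2.29 and 3.24 in Pccg1-clr-2. Its neighbour NCU05133 was at 32.8, 261 and 55.9 FPKM in starved wild type and 41.9, 9.92 and 11.8 in Pccg1-clr-2. In both neighbours the highest starved wild type value was replicate 2, the library of that group with the lowest correlation to the others.

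Just inside the bounds lay NCU03319, NCU04293 and NCU00965 for Avicel (differences in L of 1.01, 1.01 and 1.06), and just outside NCU08363 (0.98), NCU03117 (0.93) and pre-1 (0.83). For Δclr-2 the nearest inside were NCU07979 (-1.002), NCU04293 (-1.02) and NCU07270 (-1.06), and outside NCU07055 (-0.99), gst-3 (-0.99) and NCU01866 (-0.97). For Pccg1-clr-2 they were NCU04127 (0.45), NCU08379 (0.41) and NCU09653 (0.37) inside, and NCU00326 (0.55), NCU05574 (0.58) and NCU01058 (0.59) outside. For the level, NCU08043 (9.67 FPKM), NCU07270 (9.84) and NCU01003 (10.8) were nearest inside, and NCU05848 (3.21) and NCU01943 (1.30) outside.

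Of the 49 genes, 7 (14.3%) carry a symbol in the reference annotation, against 34 of 118 (28.8%) in the comparison set and 1116 of 9746 (11.5%) over all genes. Members of the glycoside hydrolase list, 84 enzymes of plant cell wall and glycan breakdown, numbered 4: gh3-3, gh3-6 and gh3-7, of a family of β-glucosidases and β-xylosidases that release single sugars, and gh47-3, of an α-mannosidase family. The comparison set held 22 enzymes of that list. The only listed regulator among the 49 was xlr-1, the activator of hemicellulase genes. The other symbols were msh3, the name of a DNA mismatch repair protein, and gst-4, a glutathione S-transferase. The list of 3 sugar transporters had no member here and 2 in the comparison set. None of the 4 endoplasmic reticulum folding genes or 6 conidiation genes fell in either set.

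The genes lay on all 7 chromosomes, with 12 on I, 1 on II, 7 on III, 12 on IV, 8 on V, 3 on VI and 6 on VII (positions from the files, build NC12). In 18 of 49 (36.7%) a directly adjacent gene also met the Avicel and Δclr-2 conditions, against 41 of 118 (34.7%) in the comparison set and 324 of 9746 genes (3.32%) in all. In 10 of the 49 that neighbour was another of the 49, and in 9 it was in the comparison set. On chromosome III, gh3-3 (III:5254966-5258478) lay beside NCU08756 (III:5252358-5254295) and 1 gene away from NCU08752 (III:5265629-5268474). On IV, gh3-7 (IV:5279559-5281914) lay beside NCU09924 (IV:5277522-5278842). On I, NCU08113 (I:313930-315269) and msh3 (I:325003-328569) flanked cdt-2, a cellodextrin transporter gene (I:318873-321079) that Pccg1-clr-2 raised, with a difference in L of 2.31 against -0.15 and -0.29 for its 2 neighbours. NCU05863 (VII:4098319-4099978) stood likewise beside NCU05864, whose difference was 5.42 against 0.05. The rule itself sets a member apart from such a neighbour in this value.

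NCU08043 (IV:4007340-4008122) and NCU08044 (IV:4011143-4012979) were the next genes after clr-2 (IV:4001190-4004643). Both mutants in the choice of genes carry the deletion at that place. In those mutants an effect of lost CLR-2 protein and one of the altered locus cannot be told apart for these 2 genes. Their values in Δclr-1, whose label names no deletion of clr-2, are given below. The loci of 14 of the 49 genes overlap another gene, among them those of NCU08044, NCU08411 and gst-4. Since no source used here states whether the libraries were stranded, reads of overlapping partners cannot be told apart in these 14.

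The first comparison outside the rule asked what loss of the partner activator did on Avicel. In Δclr-1, 34 of 49 genes fell and none rose against wild type on Avicel. A call needs an adjusted p under 0.05 and a log2 fold change of at least 1 in size. Of all genes tested, 8.32% were called, 5.84% higher and 2.48% lower. The median log2 fold change of the 49 was -1.39, where that of all genes was 0.33. The wild type Avicel libraries also served the rule, so genes picked for a high value there are compared with that same value. Only the Δclr-1 libraries are new. Transcripts of clr-2 were at 1.17 to 2.55 FPKM in Δclr-1 on Avicel, against 172 to 192 in wild type, so clr-2 was low there as well. The genes were chosen as lower without clr-2, and a part of clr-1 apart from that of clr-2 was not tested. In bulk mycelium, fewer cells of a kind and less RNA per cell cannot be told apart. In the comparison set 102 of 117 genes (clr-2 left out) were called, all lower. Without replicate 1 of wild type on Avicel, the library with the lowest correlation, 40 of the 49 genes were called lower. The count was 32 without replicate 2, 31 without replicate 3, and 27 when only the groups compared were fitted.

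For gh3-6 (I:448859-451692) the wild type values on Avicel were 114, 121 and 161 FPKM, and those in Δclr-1 were 1.12, 1.15 and 1.21. The Δclr-1 values were thus at the level of starved wild type, where gh3-6 was at 1.01, 1.11 and 1.15, and the fall was 5.93 ± 0.24 (SE, log2 scale: -5.93; adjusted p = 4.3e-11). NCU09689 (V:825290-827082) was at 473, 622 and 715 FPKM in wild type on Avicel, and at 14.5, 17.2 and 17.9 in Δclr-1. In Δclr-2 it was at 212, 125 and 155 FPKM, so its 3 groups did not overlap and the level without clr-2 stayed well above the 13.4 to 20.02 FPKM of starved wild type. The fitted log2 fold change in Δclr-1 was -5.09 ± 0.22 (adjusted p = 1e-10). Whether Δclr-1 and Δclr-2 differed was not tested.

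gh3-3 was at 384, 1553 and 1556 FPKM in wild type on Avicel, the highest mean of the 49 (1164), with the low value in replicate 1. It was at 71.4, 66.2 and 66.6 in Δclr-1 and at 522, 255 and 228 in Δclr-2. The Δclr-1 libraries were below all wild type ones, with a log2 fold change of -3.82 ± 0.43 (adjusted p = 1.6e-05), while the Δclr-2 and wild type libraries overlapped. xlr-1 was at 117, 173 and 187 FPKM in wild type on Avicel and at 52.7, 63.0 and 63.1 in Δclr-1. The groups did not overlap, and xlr-1 fell by 1.38 on the log2 scale (SE 0.17, adjusted p = 6.6e-05). gh47-3, msh3 and gst-4 also fell, with log2 fold changes of -2.23, -1.96 and -1.56. The genes after clr-2, NCU08043 and NCU08044, fell with -2.045 and -1.385 (adjusted p = 0.0024 and 0.034). The NCU08044 call was lost without any 1 of the wild type libraries, and the cause of either fall was not tested.

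The remaining symbol, gh3-7, did not pass the size threshold. It was at 18.4, 32.7 and 41.9 FPKM in wild type and 15.2, 15.7 and 15.1 in Δclr-1, a log2 fold change of -0.90. NCU06490 (0.08) and NCU10106 (-0.03) had the values nearest 0 of the 15 genes without a call. NCU10106 was at 9.99 FPKM in replicate 1 of wild type on Avicel but at 86.9 and 100 in the others, so a single library set much of its spread. Of the abundant genes, NCU02455 (797 ± 223 FPKM in wild type on Avicel), NCU04127 (484 ± 70.4), NCU09425 (436 ± 168) and NCU08379 (425 ± 41.9) fell in Δclr-1, with log2 fold changes of -1.09, -1.63, -1.07 and -1.81. NCU02455 and NCU09425 lost the call without wild type replicate 2 (-0.99 and -0.87) or replicate 3 (-0.94 and -0.88). For NCU03319 (380 ± 28.6 FPKM) the value was -0.99, just under the size threshold.

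Next came loss of the repressor CLR-3 without any cellulose. At 4 h of starvation, 12 of 49 genes rose in Δclr-3 and 1 fell (10.6% of all genes were called, 3.16% higher and 7.45% lower). The median log2 fold change of the 49 was 0.45 (all genes -0.19). The starved wild type libraries at 4 h also served the rule, which favours genes that are low in them, so only the Δclr-3 libraries are new in that comparison. At 10 h, where no library is shared with the rule, 18 of the 48 genes tested rose and none fell. Of all genes, 5.55% were called, 2.93% higher and 2.62% lower. The median was 0.57 in the 48 against -0.29 in all genes. The gene not tested at 10 h was NCU01003, whose mean was below 1 FPKM there. Without replicate 2 of starved wild type the 4 h counts were again 12 and 1. They were 11 and 2 without its replicate 1, and 10 and 0 without its replicate 3. With 1 Δclr-3 library left out, 9 to 11 genes rose and none fell. In the comparison set 70 of 116 genes rose at 4 h, and 68 of 113 rose and 1 fell at 10 h. Whether the 2 sets differ was not tested. Thus a part of the 49 genes rose on loss of clr-3. The conidiation list (6 genes that mark conidia and aerial hyphae, hydrophobins included) had a summed FPKM of 4929 to 7830 in Δclr-3 and 8145 to 15740 in wild type at 4 h. At 10 h the sum was 4681 to 5117 in Δclr-3 and 5754 to 8791 in wild type, and none of the 6 was called at either time; their part in the result was not tested.

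Levels of clr-2 itself in Δclr-3 were 19.8 to 44.7 FPKM at 4 h and 68.2 to 102 at 10 h. All of these were below the 207 to 362 FPKM of Pccg1-clr-2, in which the differences in L of the 49 genes were 0.45 or less. The rule itself set that limit, so it is no finding about these genes. Any part of the activator levels was not tested. Levels of clr-1 in Δclr-3 were 40.9 to 51.1 FPKM at 4 h, below the 92.2 to 167 of Pccg1-clr-2.

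gh3-6 was at 60.8, 90.4 and 157 FPKM in Δclr-3 at 4 h and at 34.0, 75.5 and 67.7 at 10 h, against 1.82, 2.17 and 1.84 in wild type at 10 h. In Pccg1-clr-2, a group whose level the rule bounds, gh3-6 was at 1.20, 1.603 and 1.39 FPKM. Every Δclr-3 library was far above every starved wild type library. The log2 fold change was 5.53 ± 0.24 at 4 h (adjusted p = 1.7e-10) and 4.28 ± 0.20 at 10 h (adjusted p = 2.5e-13).

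NCU09689 was at 290, 432 and 464 FPKM in Δclr-3 at 4 h, against 15.4, 13.4 and 20.02 in wild type. In Pccg1-clr-2, whose level the rule bounds, it was at 15.4, 14.2 and 16.4. At 10 h it was at 302, 477 and 423 in Δclr-3 and 17.1, 17.4 and 17.4 in wild type. The Δclr-3 and wild type libraries did not overlap at either time, and the log2 fold changes were 4.51 ± 0.22 and 4.43 ± 0.11 (adjusted p = 7.4e-10 and 1.2e-17).

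For NCU05863 the 4 h values were 39.4, 41.2 and 45.5 FPKM in Δclr-3, and 5.20, 4.94 and 6.86 in wild type. At 10 h they were 44.3, 59.2 and 53.9 in Δclr-3 and 2.76, 2.37 and 2.65 in wild type. The gene rose at both times, with log2 fold changes of 2.70 ± 0.41 and 3.89 ± 0.13 (adjusted p = 0.00028 and 1.4e-15). gh3-3 was at 412, 416 and 440 FPKM in Δclr-3 at 4 h and 190, 273 and 265 at 10 h. In wild type it was at 75.3, 41.7 and 74.2 at 4 h and 25.3, 28.6 and 31.6 at 10 h, and it rose with log2 fold changes of 2.76 and 3.03. Its neighbour NCU08756 rose as well, with log2 fold changes of 2.52 and 2.10.

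**Figure D2:**
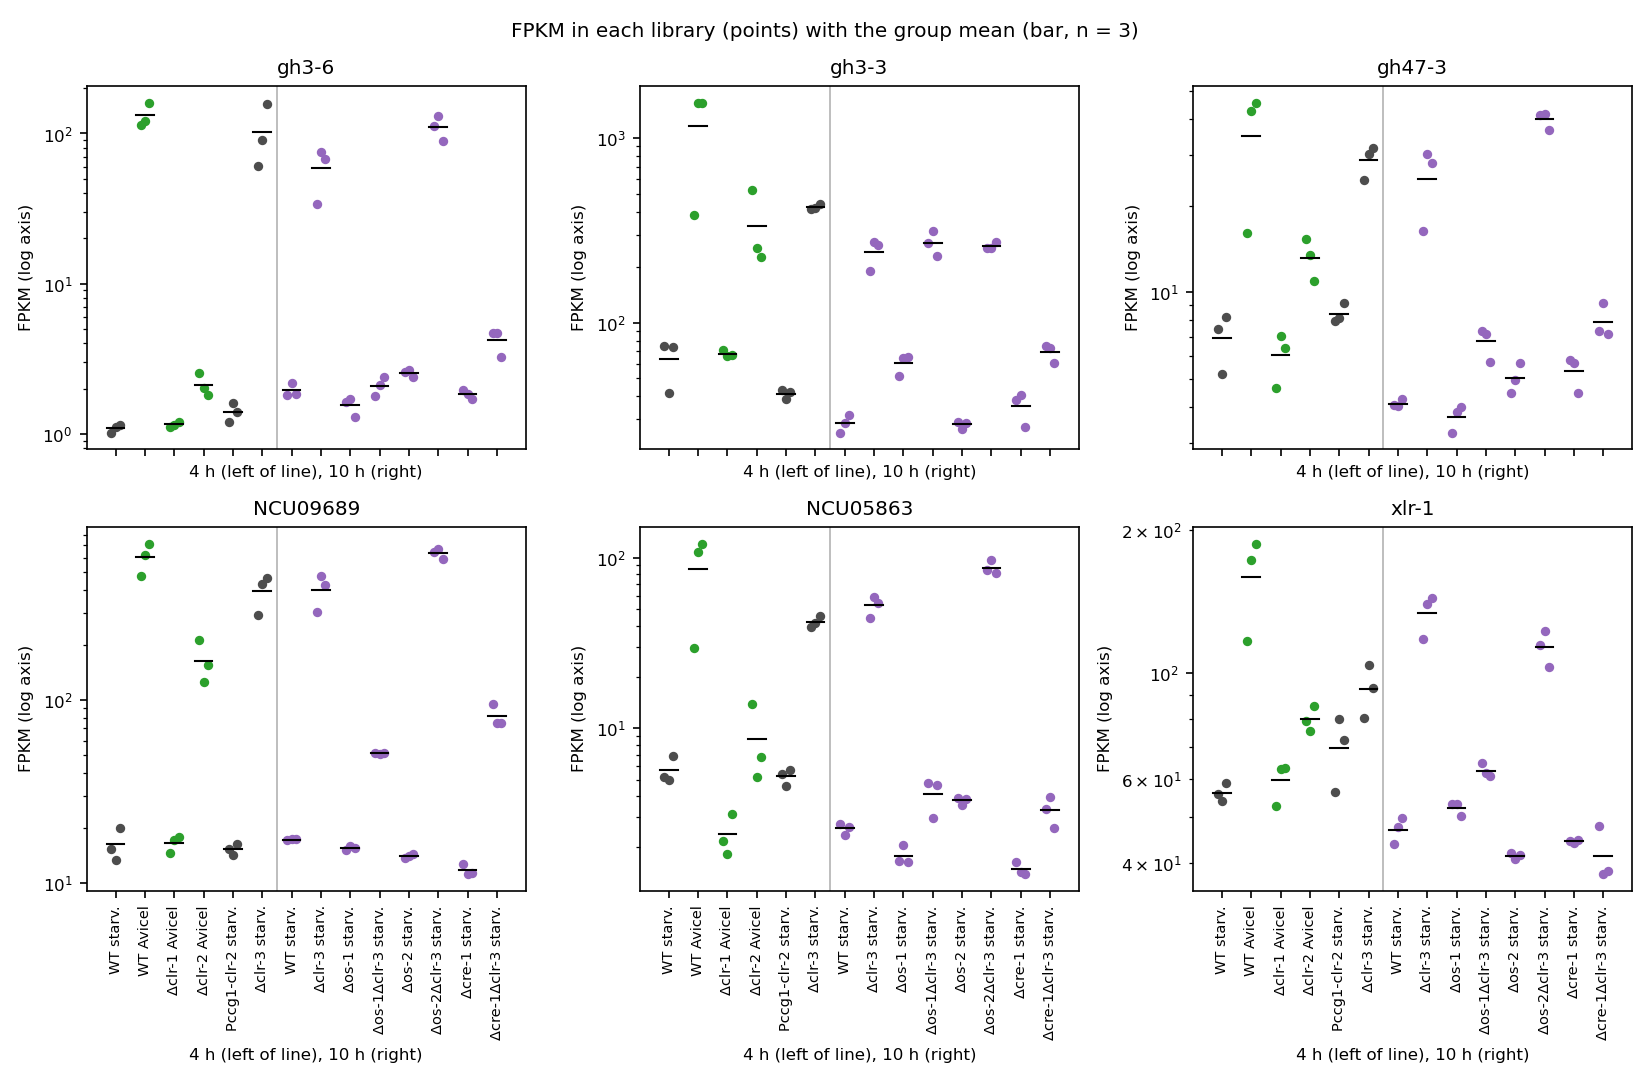
FPKM on a log axis in all 42 libraries for 6 genes, with 4 h groups left and 10 h groups right of the line; points are libraries, bars are means of 3, and green, grey and purple mark Avicel at 4 h, starvation at 4 h and starvation at 10 h. gh3-6 lies at 1.20 to 1.603 FPKM in Pccg1-clr-2, a group whose level the rule bounds, and at 60.8 to 157 in Δclr-3 at 4 h.

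gh47-3 was at 24.5, 30.4 and 31.8 FPKM in Δclr-3 at 4 h and at 7.46, 5.19 and 8.21 in wild type. At 10 h it was at 16.3, 30.2 and 28.1 against 4.05, 4.01 and 4.24, and the groups were apart at both times, with log2 fold changes of 1.92 and 2.30. xlr-1 was at 80.4, 104 and 93.2 FPKM in Δclr-3 at 4 h and 55.7, 53.8 and 58.9 in wild type, a log2 fold change of 0.70 that is under the size threshold (adjusted p = 0.0077). At 10 h it was at 118, 140 and 144 against 43.8, 47.5 and 49.7, and it rose with a log2 fold change of 1.49 ± 0.08 (adjusted p = 5.4e-12). msh3 rose at both times, with log2 fold changes of 1.57 and 1.64. gh3-7 rose at 10 h (7.31, 10.3 and 11.2 FPKM against 3.53, 3.98 and 4.14; log2 fold change 1.10), and at 4 h its value was 0.97. Without Δclr-3 replicate 3 the 10 h value was 0.99, which ends the call. gst-4 passed the threshold at neither time, with values of 0.20 and 0.39.

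The other genes that rose at both times were NCU09505, NCU08790 and NCU08044. NCU09505 was at 65.3, 95.6 and 74.7 FPKM in Δclr-3 at 4 h and 12.2, 13.4 and 8.005 in wild type, with log2 fold changes of 2.72 at 4 h and 2.60 at 10 h. NCU08044 was at 364, 475 and 436 FPKM in Δclr-3 at 10 h and 28.2, 30.7 and 35.1 in wild type, a log2 fold change of 3.71 ± 0.23. At 4 h the starved wild type values of NCU08044 were 78.2, 167 and 58.4, and the log2 fold change was 1.55 ± 0.47. That call was lost without replicate 1 or 3 of wild type or without any 1 of the Δclr-3 libraries, with values from 1.23 to 1.64. Without a call at 4 h but higher at 10 h were NCU08113, NCU08411, NCU11342, NCU01983, NCU09924 and NCU09176 (log2 fold changes of 1.77, 1.64, 1.63, 1.29, 1.18 and 1.00), beside xlr-1 and gh3-7. NCU02485 (1.26) and NCU01003 (1.04) were called higher at 4 h alone, and NCU09706 was the gene that fell, from 15.9, 9.98 and 14.6 FPKM to 7.48, 5.32 and 5.57 (log2 fold change -1.01, adjusted p = 0.041). These 3 calls were lost when single libraries were left out. The values were then 0.84, 1.13 and 0.79 for NCU01003 (wild type replicate 3, Δclr-3 replicates 2 and 3), 1.01 to 1.30 for NCU02485 (wild type replicates 2 and 3, each Δclr-3 library) and -1.15 to -0.89 for NCU09706 (wild type replicates 1 and 3, each Δclr-3 library). At 10 h NCU09176 was at 0.997, 0.92 and 0.98 without wild type replicate 2, wild type replicate 3 or Δclr-3 replicate 2.

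The 4 h and 10 h comparisons share no library. Of the 12 genes that rose at 4 h, 10 (83.3%) also rose at 10 h, and these were 10 of the 18 (55.6%) that rose at 10 h. Over all genes, 99 rose at both times, which is 37.9% of the 261 that rose at 4 h and 42.1% of the 235 that rose at 10 h. Across the 48 genes tested at both times the log2 fold changes had a Pearson correlation of 0.85 and a Spearman correlation of 0.764, a description across genes, which are not independent replicates. The genes with the largest Avicel difference were most often called: of the 11 with a difference in L of at least 3, 8 rose at 4 h and 9 at 10 h. Of the 14 between 2 and 3, 2 rose at 4 h and 5 at 10 h, and of the 24 between 1 and 2, 2 rose at 4 h and 4 at 10 h. The 4 h part of this description shares the starved wild type libraries with the Avicel difference.

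**Figure D3:**
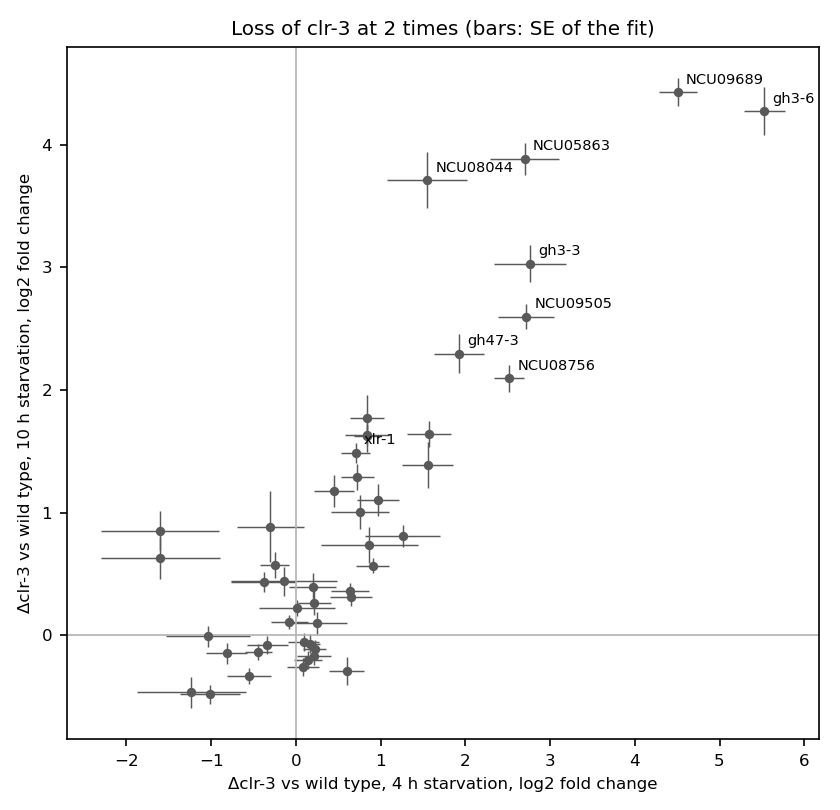
Each point is 1 of the 48 genes tested at both times, with its log2 fold change in Δclr-3 against wild type at 4 h on the horizontal axis and at 10 h on the vertical axis; bars are standard errors of the fit. gh3-6 and NCU09689 lie highest at both times, and a cloud of genes lies near 0 on both axes.

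In the single mutants of the osmosensing kinases and of cre-1 at 10 h, few of the genes passed both thresholds of a call. In Δos-1, 2 rose and 1 fell (2.67% of all genes called, 1.58% higher and 1.09% lower). In Δos-2, 2 rose and 1 fell (10.7% of all genes, 4.48% higher and 6.26% lower). In Δcre-1, 4 rose and none fell (5.97% of all genes, 2.85% higher and 3.12% lower). The median log2 fold changes were -0.14, -0.18 and -0.05, against -0.09, -0.24 and -0.16 over all genes. The genes called made up 6.25, 6.25 and 8.33% of the 48, against 2.67, 10.7 and 5.97% of all genes, so small counts were not particular to these genes. With no size threshold the counts were 21, 32 and 26 of 48, where 42.4, 74.3 and 65.6% of all genes were called. The 3 comparisons and that of Δclr-3 share the wild type libraries. The conidiation genes summed to 14790 to 21520 FPKM in Δos-1, 19680 to 21370 in Δos-2 and 9984 to 16180 in Δcre-1, all above wild type. The largest part of each sum was eas, whereas con-10 had lower means (453, 150 and 256 FPKM) than in wild type (988). Of the 6, 3 rose and 1 fell in Δos-1, 2 rose and 2 fell in Δos-2, and 3 rose and 1 fell in Δcre-1; their part was not tested.

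NCU08044, the gene 2 places from clr-2, rose in all 3 of these mutants. Its values were 62.7, 118 and 189 FPKM in Δos-1, 162, 175 and 154 in Δos-2 and 219, 251 and 265 in Δcre-1, all above the 28.2 to 35.1 FPKM of wild type. The log2 fold changes were 1.81 ± 0.23, 2.35 ± 0.23 and 2.93 ± 0.23 (adjusted p = 2.5e-06, 1.2e-08 and 1.1e-09). In Δos-1, gh3-3 rose from 25.3, 28.6 and 31.6 FPKM to 51.4, 64.4 and 65.5 (log2 fold change 1.05 ± 0.15, adjusted p = 9.8e-06), and NCU05134 fell (-1.58). For gh3-3 the value was 0.98 without wild type replicate 1 and 0.99 without Δos-1 replicate 3, both just under the size threshold. NCU05133, the neighbour of NCU05134, rose in Δos-2 (1.35) and in Δcre-1 (1.17), and NCU09425 fell in Δos-2 (-1.13, and -0.90 after median-ratio rescaling). NCU08790 was at 7.05, 6.53 and 7.40 FPKM in Δcre-1 against 1.80, 2.30 and 2.62 in wild type. It rose there with a log2 fold change of 1.31, and NCU09924 did with 1.03 (0.98 without Δcre-1 replicate 1).

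The double mutants address what loss of each kinase or of CRE-1 changes once CLR-3 is absent. In Δos-1Δclr-3 against Δclr-3, 18 of 48 genes fell and none rose (5.64% of all genes called, 3.11% higher and 2.53% lower). The median log2 fold change of the 48 was -0.64 (all genes -0.0016). This comparison shares the Δclr-3 libraries with that of Δclr-3 against wild type, so the values of each are given side by side with no count across both. gh3-6 was at 1.80, 2.10 and 2.38 FPKM in Δos-1Δclr-3, 34.0, 75.5 and 67.7 in Δclr-3 and 1.82, 2.17 and 1.84 in wild type. The double mutant overlapped wild type, and gh3-6 was lower than in Δclr-3 by a log2 fold change of -4.21 ± 0.20 (adjusted p = 3.5e-13). NCU05863 was at 4.75, 2.97 and 4.64 FPKM, a fall of 3.39 on the log2 scale. NCU09689 was at 51.5, 50.8 and 51.1 FPKM, which lies between wild type and Δclr-3 without overlap, with a log2 fold change of -2.92.

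NCU09505 (-2.77), NCU05134 (-2.42), gh47-3 (-1.70), gh3-7 (-1.56), msh3 (-1.30) and xlr-1 (-1.08) were among the other genes that fell. xlr-1 was at 64.7, 61.8 and 60.8 FPKM in Δos-1Δclr-3 against 118, 140 and 144 in Δclr-3. gh3-3 was not called here: it was at 269, 314 and 230 FPKM in Δos-1Δclr-3, overlapping the 190, 273 and 265 of Δclr-3, with a log2 fold change of 0.17 ± 0.15 (adjusted p = 0.36). Its neighbour NCU08756 was at 11.1, 12.01 and 10.3 FPKM against 12.8, 14.0 and 16.6 (log2 fold change -0.35). Levels of clr-2 were 7.78 to 8.98 FPKM in Δos-1Δclr-3, 68.2 to 102 in Δclr-3 and 1.79 to 2.00 in wild type.

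The effect of Δos-1 in the Δclr-3 background differed from its effect in the wild type background in 17 genes, all with a lower value (3.11% of all genes called). The conidiation genes, with eas the largest part, had a summed FPKM of 18690 to 22400 in Δos-1Δclr-3, above every Δclr-3 library. Against Δclr-3, 3 of the 6 rose and 1 fell. Their part in the result was not tested.

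In Δcre-1Δclr-3 against Δclr-3, 16 of 48 genes fell and 1 rose (14.6% of all genes called, 4.48% higher and 10.1% lower). The median log2 fold change of the 48 was -0.63 (all genes -0.38). NCU05863 was at 3.35, 3.98 and 2.61 FPKM in the double mutant against 44.3, 59.2 and 53.9 in Δclr-3, and fell by 3.63 on the log2 scale (SE 0.13, adjusted p = 9.2e-15). gh3-6 was at 4.65, 4.67 and 3.23 FPKM, above the 1.82 to 2.17 of wild type and below every Δclr-3 library, with a log2 fold change of -3.47 ± 0.20. gh3-3 was at 75.2, 72.5 and 60.9 FPKM and fell with a log2 fold change of -1.77 ± 0.15 (adjusted p = 7.2e-10). Its neighbours NCU08756 and NCU08752 fell with -1.44 and -1.80. xlr-1 was at 47.8, 37.9 and 38.4 FPKM, within or below the range of wild type, a log2 fold change of -1.67 ± 0.08.

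NCU11342 (-2.44), NCU09689 (-2.26), msh3 (-1.93) and gh47-3 (-1.50) also fell. NCU09505 (-1.23) and NCU10106 (-1.17) fell too, but after rescaling their values were -0.86 and -0.85. NCU05133 was the gene that rose, to 169, 229 and 175 FPKM from 83.5, 71.8 and 78.9 (log2 fold change 1.27). NCU08411 was at 362, 372 and 414 FPKM against 203, 225 and 242, all libraries higher, with a value of 0.78 that is under the size threshold. The effect of Δcre-1 depended on the clr-3 background in 22 of 48 genes, all with a lower log2 fold change in Δclr-3. Of all genes, 6.86% were called, 2.63% higher and 4.23% lower. A gene with a low level in starved wild type has little room to fall there on this scale, which can favour such a difference. In NCU08044, which had the largest difference (-3.69), loss of cre-1 gave a rise of 2.93 in the wild type background. No explanation was tested. The conidiation genes summed to 8372 to 11190 FPKM in Δcre-1Δclr-3, and 3 of 6 rose and 1 fell against Δclr-3; their part was not tested. Levels of clr-2 were 27.2 to 36.8 FPKM in Δcre-1Δclr-3.

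Loss of os-2 was compared in the same background. In Δos-2Δclr-3 against Δclr-3, 4 genes rose and 1 fell (8.46% of all genes called), and the median log2 fold change was 0.04 (all genes -0.29). By direction, 8.33% of the 48 genes rose against 2.72% of all genes, and 2.08% fell against 5.74%. The conidiation genes summed to 7694 to 10730 FPKM in Δos-2Δclr-3, again above every Δclr-3 library. Of the 6, 2 rose and 1 fell, with a median log2 fold change of -0.17, and their part was not tested. NCU09505 was at 189, 208 and 180 FPKM against 71.3, 82.9 and 78.5 in Δclr-3, and rose with a log2 fold change of 1.30 ± 0.10 (adjusted p = 6.2e-10). NCU08411 was at 496, 501 and 567 FPKM and rose with 1.22 ± 0.08. NCU05133 (1.61) and NCU01944 (1.41) rose too, and gh3-7 fell to 4.47, 4.98 and 3.16 FPKM (-1.03). The gh3-7 call was lost after rescaling (-0.76) and without Δclr-3 replicate 2 (-0.97), Δclr-3 replicate 3 (-0.92) or Δos-2Δclr-3 replicate 3 (-0.87).

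gh3-6 was at 113, 130 and 89.4 FPKM in Δos-2Δclr-3, above all 3 Δclr-3 libraries, with a log2 fold change of 0.96 that is under the size threshold (adjusted p = 0.00018). NCU09689 was at 646, 665 and 586 FPKM, also above Δclr-3, with a value of 0.68. The effect of Δos-2 depended on the clr-3 background in 4 genes, 3 higher and 1 lower in Δclr-3 (4.62% of all genes called, 1.95% higher and 2.67% lower). Levels of clr-2 were 168 to 191 FPKM in Δos-2Δclr-3, and the comparison set held 32 genes that rose and 3 that fell of 113. Whether Δos-1 and Δos-2 differed in the Δclr-3 background was not tested.

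**Figure D4:**
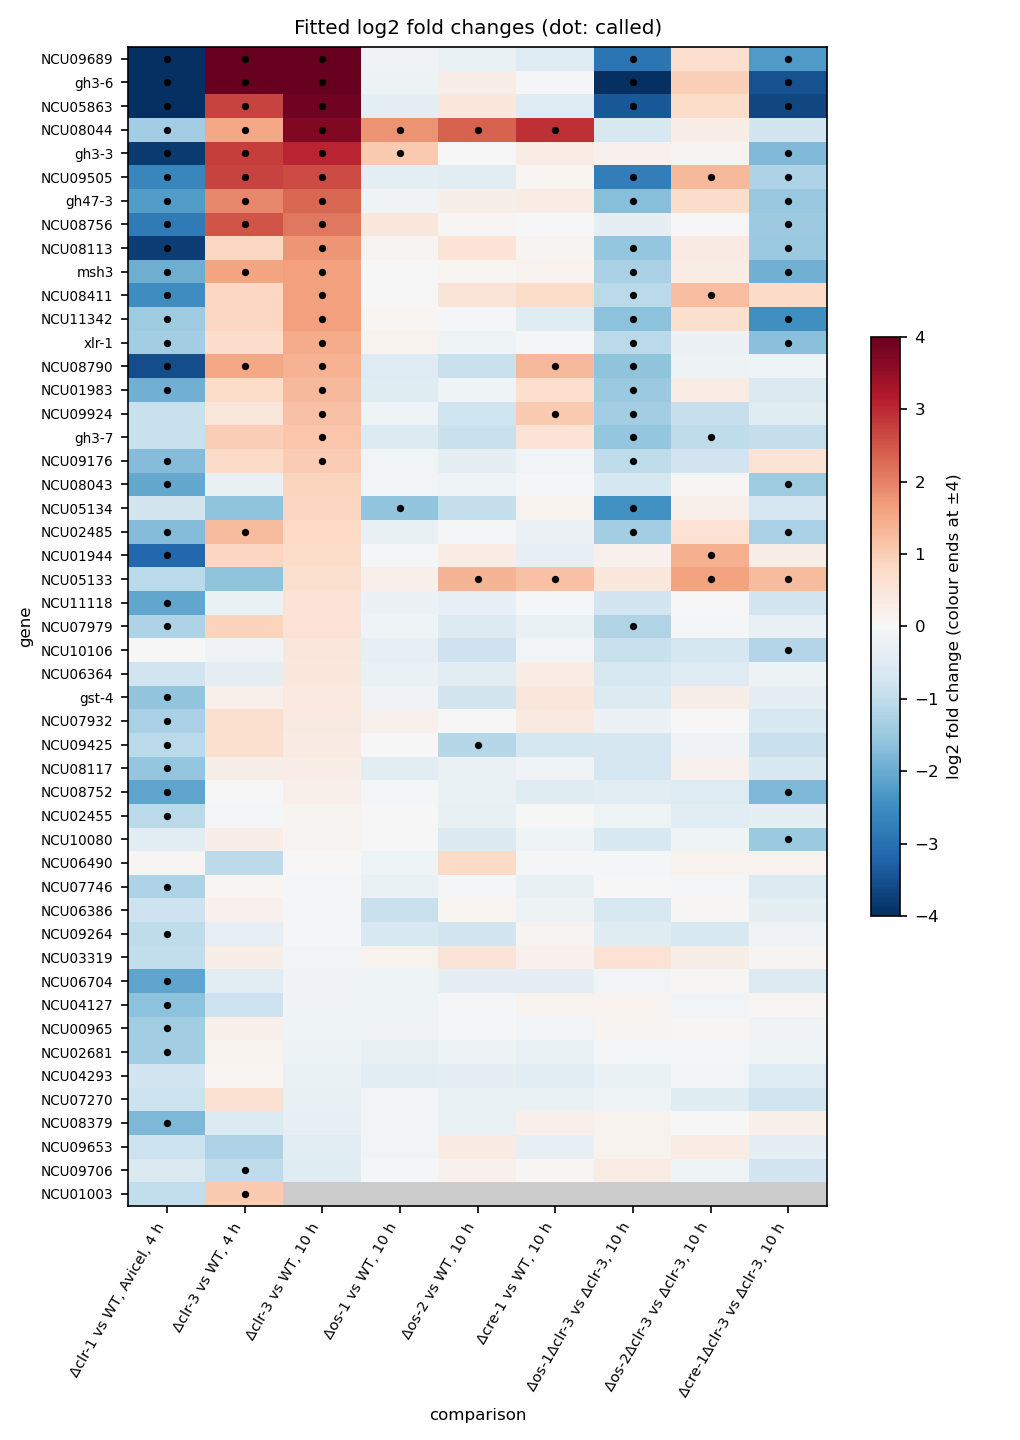
Fitted log2 fold changes of the 49 genes (rows, ordered by Δclr-3 at 10 h) in 9 comparisons (columns), red higher and blue lower, with a dot where a gene was called and grey where it was not tested. Rows at the top are red in Δclr-3 at both times; in the Δos-1Δclr-3 and Δcre-1Δclr-3 columns 18 and 16 genes are called lower.

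Of the 48 genes tested at 10 h, 28 (58.3%) were called in at least 1 of the 7 comparisons there, against 27.3% of all genes. The other 20, and NCU01003, which was not tested, make up 21 genes without a call at 10 h. Their Avicel difference in L was between 1.01 and 2.91. NCU02455, NCU04127, NCU08379 and NCU03319, which were among the most abundant of the 49 on Avicel, belong here. The group means of NCU02455 at 10 h lay between 156 and 216 FPKM, those of NCU04127 between 137 and 181, and those of NCU08379 between 108 and 156. Over the same groups gh3-6 means ran from 1.55 to 111 FPKM. gst-4 (2.46 to 7.93), NCU06704 (27.4 to 44.7) and NCU08117 (5.37 to 10.6) are further examples. The absence of a call does not show that a gene was equal in all strains.

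Of the gene lists, the glycoside hydrolases had 31 of 78 tested genes higher and 3 lower in Δclr-3 at 4 h, and 27 of 74 higher and 2 lower at 10 h. In Δos-1Δclr-3 against Δclr-3 they had 5 higher and 26 lower, in Δcre-1Δclr-3 3 higher and 24 lower, and in Δos-2Δclr-3 17 higher and 2 lower, of 74 tested each. In Δclr-1 on Avicel 5 of 78 were higher and 26 lower. The 7 regulators had 2 higher and 1 lower in Δclr-3 at 10 h. Of 3 sugar transporters 2 rose in Δclr-3 at both times, and none of the 4 endoplasmic reticulum folding genes was called in Δclr-3.

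**Figure D5:**
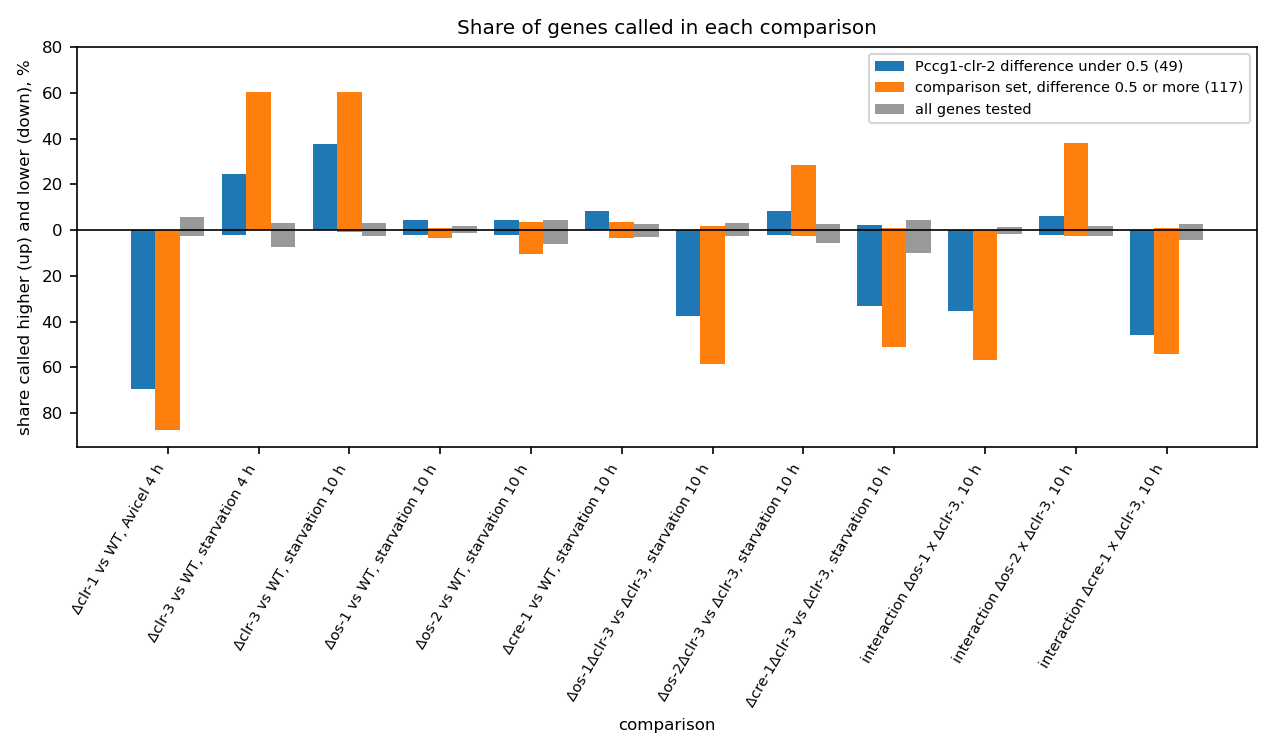
Share of genes called higher (upward bars) and lower (downward bars) in each comparison, in percent, for the 49 genes, whose Pccg1-clr-2 difference in L is under 0.5, the comparison set, whose difference is 0.5 or more, and all genes tested. In Δclr-3 at 10 h 37.5% of the 48 genes tested were called higher, against 60.2% of the comparison set and 2.93% of all genes.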

How the data were processed

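The deposited per-library FPKM values, made by the authors, were used as given; HISAT2 2.0.5 and Cufflinks 2.2.1 are named, per the submitters' processing notes, and the strandedness of counting is not given in the sources used here. The deposited whole-series table was not used. Of 9758 genes, 12 with a failed estimate in any library were left out. The depth was implied from the deposited FPKM bounds, since the files hold no counts. The members and the gene lists were chosen with earlier results of these data known. Named genes are members with a symbol or in a list, the 10 most abundant on Avicel, the 10 with the largest Avicel difference, the 5 largest calls per direction in each comparison outside the rule except Δclr-1, and those nearest the thresholds; others given in groups, and the examples for Δclr-1, were chosen after their values were seen. The neighbour positions come from the files (starts made 1-based), and symbols from the NC12 annotation, in which 9745 genes matched.

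Tests used limma 3.58.1 in R 4.3.3 (lmFit and eBayes with trend) on log2(FPKM + 1), for genes whose mean over the fitted libraries reached 1 FPKM, once over the 18 libraries at 4 h and once over the 24 at 10 h, so groups of a time share 1 estimate of spread. P-values were adjusted by Benjamini-Hochberg over all genes tested. A fold change on this scale understates the change of genes with low values. The 3 rule contrasts were described and not tested. The all-gene median moved by -0.38 to 0.33 on the log2 scale between comparisons, and a median-ratio rescaling was an alternative. Deviations of same-numbered libraries from their group means correlated above 0.1 in all 3 pairs for Δclr-1 against wild type on Avicel (0.205 to 0.39) and for Δcre-1Δclr-3 against Δclr-3 (0.134 to 0.148). Numbers were taken as possible pairs there, from the data alone, which does not establish pairing. The main fits held no replicate term, so their p-values ignore any pairing. A fit with a replicate block was an alternative. Sequence features were not analysed here.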

Additional observations from a re-analysis of the deposited data

Results flagged for a closer look

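A value is given here where the effect of losing os-1, os-2 or cre-1 differed between the Δclr-3 and the wild type background by the interaction term of the limma fit (adjusted p under 0.05, at least 1 in size on the log2 scale, 12 libraries each). A gene with a low level in starved wild type has little room to fall there on this scale, which can favour a negative difference in such a gene. No explanation was tested.

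The difference for os-1 was negative in 17 genes. There the log2 fold change on loss of os-1 was lower (more negative or less positive) in Δclr-3 than in wild type. It was -3.99 in gh3-6, -3.03 in NCU05863, -2.78 in NCU09689, -2.44 in NCU08044 and -2.41 in NCU09505. In NCU11342 it was -1.71, in NCU08113 -1.64, in gh47-3 -1.57, in msh3 -1.30 and in xlr-1 -1.23. The rest were NCU09924 at -1.19, NCU02485 at -1.11, NCU08790 at -1.08, NCU08411 at -1.06, gh3-7 at -1.03, NCU07979 at -1.02 and NCU01983 at -1.01. The last 2, gh3-7 and NCU08790 lost the call in some fits without 1 library, with values of -0.997 and -0.98 for NCU07979 (without wild type replicate 3 or Δos-1Δclr-3 replicate 1), -0.89 to -0.97 for NCU01983 (wild type 3, Δclr-3 2 or 3, Δos-1 3, Δos-1Δclr-3 2), -0.92 to -0.97 for gh3-7 and -0.87 to -0.98 for NCU08790 (for both, wild type 1, Δclr-3 2 or 3, Δos-1Δclr-3 1).

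The difference for os-2 was 1.73 in NCU09505, 1.15 in NCU05134 and 1.12 in NCU01944, and -2.09 in NCU08044. NCU05134 was at 0.996 without Δclr-3 replicate 3, and NCU01944 at 0.98 without Δclr-3 replicate 1.

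The difference for cre-1 was negative in 22 genes. It was -3.69 in NCU08044, -3.42 in gh3-6, -3.10 in NCU05863, -2.06 in gh3-3, -2.06 in msh3 and -1.95 in NCU11342. In gh47-3 it was -1.81, in NCU09689 -1.74, in NCU08113 -1.62, in xlr-1 -1.60, in gh3-7 -1.52 and in NCU09924 -1.51. In NCU08790 it was -1.49, in NCU08756 -1.44, in NCU08043 -1.37, in NCU08752 -1.33, in NCU09505 -1.31 and in NCU10080 -1.31. The rest were NCU01983 at -1.24, NCU02485 at -1.08, NCU10106 at -1.05 and NCU07932 at -1.02. After rescaling NCU02485, NCU10106 and NCU07932 were at -0.94, -0.88 and -0.82. NCU10106 was at -0.97 without Δcre-1 replicate 1 and -0.90 without Δcre-1Δclr-3 replicate 3, and NCU07932 at -0.99 without Δcre-1 replicate 3.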

How the results depend on the processing

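The number of genes that meet the rule was 49; it was 44 with means in place of medians (33 shared), 67 after median-ratio rescaling (36 shared), 56 with a pseudocount of 0.1 (all 49 shared), 38 and 68 with bounds of 0.25 and 1 for Pccg1-clr-2, and 40 to 69 when 1 library was left out. The 2 extremes in number were without wild type on Avicel replicate 2 (69, 36 shared) and without Δclr-2 replicate 2 (40, 37 shared). The fewest shared genes, 33 of 68, were without wild type on Avicel replicate 3. Under all 12 such omissions 23 genes stayed in. xlr-1 and gh47-3 stayed in under 10 of the 12, and NCU04293 and NCU10106 under 7. With the members held fixed, the counts called stayed within 1.5 times under the alternatives except these. With a pseudocount of 0.1, Δos-2 gave 6 in place of 3. After rescaling, Δos-2Δclr-3 against Δclr-3 gave 8 in place of 5 and the os-2 interaction 7 in place of 4. With no size threshold the counts were 24 and 39 in Δclr-3 at 4 h and 10 h, 21 in Δos-1, 32 in Δos-2, 26 in Δcre-1, 36 in Δos-1Δclr-3, 24 in Δos-2Δclr-3, 41 in Δcre-1Δclr-3, and 32 and 21 for the os-1 and os-2 interactions; fewer criteria give more calls by construction. For single genes, 8 of 158 calls were lost after rescaling and 61 were lost (1145 kept) over the fits without 1 replicate, and none reversed. With the replicate block, Δclr-3 at 4 h gave 12 in place of 13 and the other counts did not change. The labels give no batch. Depth, implied rather than counted, limits low genes most in wild type on Avicel replicate 1.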
